A study of Mus musculus with 29 samples.

Results

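The genes described here are 6 components of the canonical Wnt pathway, measured in brain endothelial cells after stroke in mice: the receptors Fzd4 and Fzd6, the transducer Ctnnb1 (beta-catenin), the transcription factor Lef1, and the target genes Axin2 and Apcdd1. They were chosen by name, with earlier results of these data known, and are 6 of the 27641 genes listed in any of the brain tables. All 6 were tested in the endothelium of young mice and of aged mice. In the RefSeq annotation of GRCm38.p6, Lef1 lies at chr3:131110297-131224357, Fzd4 at chr7:89404366-89410110, Ctnnb1 at chr9:120933400-120960507, Axin2 at chr11:108917828-108950783, Fzd6 at chr15:39006149-39038192 and Apcdd1 at chr18:62922327-62953815.

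In the canonical pathway, a Wnt ligand binds a Frizzled receptor and an LRP co-receptor at the cell surface. The complex that marks beta-catenin for destruction is then held back, and beta-catenin enters the nucleus and acts with TCF and LEF factors on target genes. In vessels of the central nervous system this signal, carried by Wnt ligands or by norrin through Fzd4, is known to be needed for forming vessels and for building and keeping the blood-brain barrier. Axin2 is a widely used readout of the pathway because its transcription follows beta-catenin, and its product, like that of Apcdd1, acts back as an inhibitor. Beta-catenin itself is controlled mainly as a protein, so the level of Ctnnb1 RNA is not a measure of pathway activity.

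The cells came from C57BL/6J mice in which the middle cerebral artery had been occluded for a time (stroke), or which had sham surgery. Each of the 18 brain libraries was made by Drop-seq, in which single cells are caught in droplets with barcoded beads, from 4 to 5 pooled hemispheres. Cells were released with papain in the presence of actinomycin D, which blocks transcription, and sorted as microglia, cells with high CD45, and endothelial cells negative for CD45 with high Ly6c. Young males of 8 to 10 weeks gave 4 libraries per group: sham and stroke at day 2, and stroke at day 14. From aged mice, 17 to 20 months old, came 1 male and 1 female sham library at day 2, 1 male and 2 female stroke libraries at day 2, and 1 female stroke library at day 14. There was no sham group at day 14, so both stroke times were set against sham mice of day 2. Nothing in the labels says more of how replicate libraries relate, so the p-values measure the spread between libraries of pooled animals.

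The deposited annotation names 7627 of 55268 brain cells endothelial (code EC), 176 to 1171 per library. In young mice their summed counts were 100317 to 377240 per library in sham, 343753 to 730352 at day 2 and 115733 to 562110 at day 14. The median count per endothelial cell was 286 to 606 in sham, 476 to 1008 at day 2 and 304 to 732 at day 14, so these cells were shallow. All 10 endothelial markers checked were detected in each young group. Their summed level was 24280 to 33610 CPM (counts scaled to a total of 1000000 for the library's endothelial cells) in sham, 17160 to 23640 CPM at day 2 and 24880 to 30540 CPM at day 14. Monocyte and macrophage markers summed in these cells to 507 to 924 CPM in sham, 378 to 1404 CPM at day 2 and 344 to 1288 CPM at day 14. Mural markers summed to 127 to 583 CPM, 72.5 to 256 CPM and 114 to 824 CPM. Whether these counts came from other cells was not tested. Microglial markers summed to at most 60.05 CPM in these cells, and P2ry12, Siglech, Cx3cr1, Csf1r and Gpr34 were at 0. These zeros are of rounded sums of the deposited fractional counts: 10.4% to 39.4% of the cells (most in sham replicate 1) held a value above 0 of 1 of 5 leukocyte genes, yet those values summed to under 1 count in 9 of the 12 young libraries and to at most 14.1. The step that made the counts fractional is not given in the sources used here, and its part in levels near 0, in this and other cell types, was not tested. Endothelial mitochondrial content split the young libraries into 5 with a median of 0.496% to 1.12% (1 sham and 2 of each stroke time) and 7 with 5.47% to 8.62%; the aged libraries all lay at 5.15% to 7.60%.

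At day 2 against sham Axin2 and Lef1 were the called members with the largest fold changes, and the promoters below are printed because these 2 genes moved together across libraries. Each line gives the 250 bases before a RefSeq transcription start on the plus strand of GRCm38.p6, Axin2 at chr11:108920099-108920348 and Lef1 at chr3:131156044-131156293. Both starts lie inside the annotated gene. Of the 4 Lef1 promoters in the table this one is printed because it holds a match, and the other 3 hold 0. Capitals mark a match to the TCF and LEF motif.
Axin2: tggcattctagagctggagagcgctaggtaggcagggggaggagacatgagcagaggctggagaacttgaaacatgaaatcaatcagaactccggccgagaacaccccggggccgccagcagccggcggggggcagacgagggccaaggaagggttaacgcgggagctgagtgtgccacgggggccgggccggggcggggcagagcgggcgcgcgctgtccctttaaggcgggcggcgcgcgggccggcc
Lef1: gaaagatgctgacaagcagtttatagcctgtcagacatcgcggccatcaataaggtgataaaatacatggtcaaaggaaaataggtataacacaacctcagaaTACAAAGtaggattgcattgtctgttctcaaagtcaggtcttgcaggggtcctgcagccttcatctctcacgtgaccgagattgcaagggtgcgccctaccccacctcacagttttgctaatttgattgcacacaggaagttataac
The motif was searched on both strands in 4 forms. Those ending in A were CTTTGAA and, as its variant, CTTTGTA. Those ending in T were CTTTGAT and, likewise as its variant, CTTTGTT. The table of promoters held 4 of the 6 members, Fzd6 and Apcdd1 not being matched, with 8 promoters of 300 bases. The match printed, TACAAAG, is CTTTGTA on the other strand, begins 147 bases before the start and was the 1 match among these 8 promoters. Of all 32851 promoters of that length in the table, 16.9% held a match. A match is a description of letters and was not tested as a binding site.

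Across the cell types of young brain, the mean level of each of the 6 genes was highest in endothelium. These levels are given as a description, because the annotation rests on the same expression values. Fzd4, a receptor for norrin and Wnt ligands in vessels, had a mean of 99.9 ± 25.4 CPM in endothelium (SD, n = 12 libraries). Among types with more than 1 library of at least 20 cells, microglia came next at 5.74 ± 4.37 CPM. Cells coded Epi, with 1 such library of 23 cells, held 1 Fzd4 count (28.3 CPM, a floor of 3 counts being 84.9 CPM). Every endothelial library lay above every microglial one. In day 2 replicate 3 the 58 cells coded microglia had P2ry12 and Cx3cr1 at 0, and without that library the microglial mean of Fzd4 was 6.26 ± 4.17 CPM and that of Ctnnb1 152 ± 39.1 CPM (n = 11). Fzd6, another Frizzled receptor, known for planar cell polarity, stood at 167 ± 60.9 CPM (SD, n = 12), and the next type, T cells, at 3.78 CPM. There too the libraries of the 2 types did not overlap. Apcdd1, a membrane glycoprotein that inhibits Wnt signalling, was at 42.2 ± 28.5 CPM in endothelium, against 1.30 CPM in dendritic cells. Cells coded MC, which carry mural markers, were at 0 for Fzd4, Fzd6 and Apcdd1 in the 3 libraries with 20 or more of them, on 39392 counts in all (a floor of 76.2 CPM). With that floor, the depth does not show these genes to be low in MC. With all MC cells counted, a value of Fzd6 above 0 was held by 2 of 74 in sham, 1 of 35 at day 2 and 5 of 27 (18.5%) at day 14. Such a value can be a fraction of a count.

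Ctnnb1, whose product also serves cell adhesion, was measured in all types compared. Its mean was 626 ± 229 CPM in endothelium (SD, n = 12), 256 ± 127 CPM in MC cells (n = 3), and 143 ± 49.5 CPM in microglia (n = 12). The gap from endothelium to the next type exceeded the sum of the 2 SDs, although single libraries overlapped. Lef1 was at 425 ± 160 CPM in endothelium and at 195 ± 119 CPM in T cells (n = 11), a lineage in which LEF1 is a known factor. It was also at 133 ± 167 CPM in MC cells (n = 3, on 5 counts) and at 65.7 ± 64.0 CPM in NK cells (n = 6, on 34 counts). Axin2 was at 58.8 ± 37.5 CPM in endothelium and at 18.0 ± 15.8 CPM in T cells. For Lef1 and Axin2 the gap to T cells did not exceed the sum of the 2 SDs, and the summed T and NK cell markers within endothelium reached at most 60.1 CPM. These SDs span the sham, day 2 and day 14 libraries. Sham endothelium alone ran from 67.65 to 84.7 CPM for Axin2 and from 472 to 644 CPM for Lef1. T cell libraries of all groups reached at most 39.9 and 431 CPM. Day 2 endothelium, at 0 to 20.5 CPM for Axin2 and 189 to 261 CPM for Lef1, lay within the range of those T cell libraries.

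**Figure D1:**
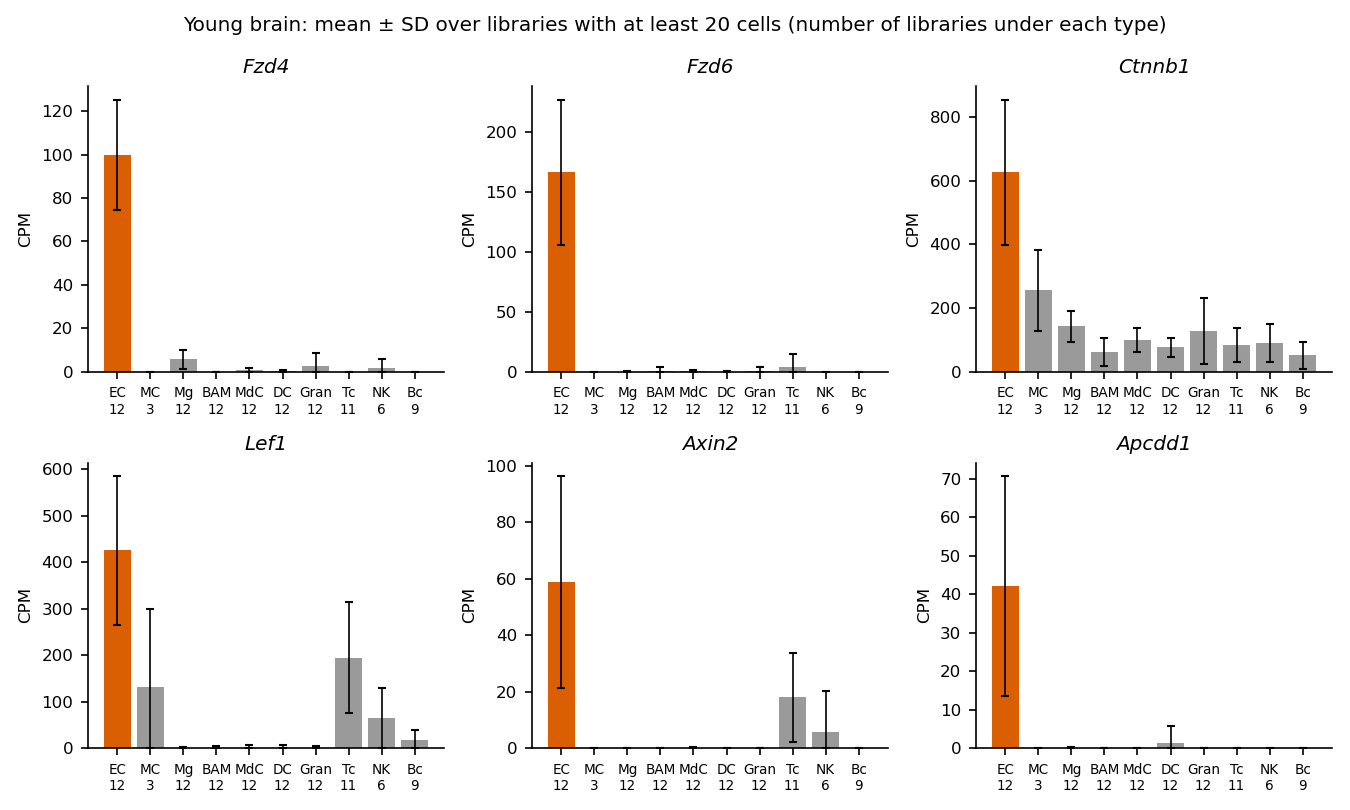
Mean level of each gene in CPM (y axis) by deposited cell type code in young brain, with SD over libraries that held at least 20 cells of the type (their number stands under each code; EC endothelium, Mg microglia, MC cells with mural markers, Tc T cells). Cells coded Epi, with 1 such library, are not drawn. Among the types drawn, Fzd4, Fzd6 and Apcdd1 are near 0 outside endothelium, a level that in MC has a floor of 76.2 CPM. Ctnnb1 is present in every type drawn. Lef1 has lower levels in T cells, MC and NK cells, and Axin2 has a lower level in T cells.

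At day 2 after stroke in young mice, 3 of the 6 genes fell in endothelium. Axin2 fell most, from a mean of 77.2 to 11.4 CPM, Lef1 fell from 548 to 227 CPM, and Ctnnb1 from 738 to 371 CPM. Fzd4, Fzd6 and Apcdd1 had lower means without passing the test. By edgeR's quasi-likelihood test with Benjamini-Hochberg adjustment over all 5833 genes tested, 3 of the 6 members were called lower (adjusted p under 0.05) and 0 higher. Of all genes tested, 6.45% were called lower and 6.89% higher. For 5 of the 6 members every stroke library lay below every sham library, which held for 12% of all genes.

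For Axin2 the sham libraries stood at 84.7, 77.4, 67.6 and 79.3 CPM, and the day 2 libraries at 10.7, 0, 14.5 and 20.5 CPM. The groups were far apart, and the library at 0 had no Axin2 count among 344776, a floor of 3 counts being 8.70 CPM there. The log2 fold change was -2.51 ± 0.43 (SE, adjusted p = 0.00286 by edgeR), resting on 27 counts at day 2 and 69 in sham. Axin2 passed the filter on low counts through its sham and day 14 libraries, not those of day 2. This limit holds for the test of day 14 against day 2 as well. With no filter Axin2 stayed called in both.

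Lef1, the DNA-binding partner of beta-catenin and itself a target of the pathway, was measured with more counts. Sham libraries stood at 476, 472, 600 and 644 CPM, and day 2 libraries at 189, 197, 260 and 261 CPM. No library of one group reached the other. The log2 fold change was -1.17 ± 0.21 (adjusted p = 0.00374 by edgeR). Both Axin2 and Lef1 kept the call whichever single young library was left out.

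Ctnnb1 stood at 590, 781, 939 and 644 CPM in sham and at 504, 383, 371 and 226 CPM at day 2. The groups did not overlap, with the first day 2 library closest to sham. Its log2 fold change was -0.92 ± 0.26 (adjusted p = 0.0285 by edgeR). This call held in 6 of the 12 fits that each left out 1 young library (adjusted p 0.0154 to 0.110, highest without sham replicate 3), and was lost without a filter on low counts (-0.86, adjusted p = 0.0654) and in cells with at least 500 counts (-0.84, adjusted p = 0.0508).

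The receptors moved less. Fzd4 stood at 135, 133, 118 and 129 CPM in sham and at 72.9, 81.2, 86.8 and 71.1 CPM at day 2, without overlap, for a log2 fold change of -0.64 ± 0.21 (adjusted p = 0.0575 by edgeR). Fzd6 stood at 222, 144, 152 and 168 CPM in sham and at 119, 101, 123 and 78.0 CPM at day 2, also without overlap, for -0.63 ± 0.22 (adjusted p = 0.0666). Neither receptor passed the threshold, and each was called in 1 of 12 alternatives. For Fzd4 it was the fit with library sizes not scaled by TMM (-0.71, adjusted p = 0.0400 by edgeR). For Fzd6 it was the fit in cells with at least 500 counts (-0.90, adjusted p = 0.0385 by edgeR). Apcdd1 was the member with overlapping groups, at 31.8, 33.2, 42.3 and 89.2 CPM in sham and at 10.7, 11.6, 45.8 and 9.58 CPM at day 2. Replicate 3 of the stroke group lay inside the sham range and the other 3 below it (log2 fold change -1.13 ± 0.57, adjusted p = 0.193). Without that library the log2 fold change was -1.94 and the adjusted p 0.0388 by edgeR. In that fit Apcdd1 passed the filter on low counts through its sham and day 14 libraries, not those of day 2. The library left out stood out by its value, so this call is a description.

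**Figure D2:**
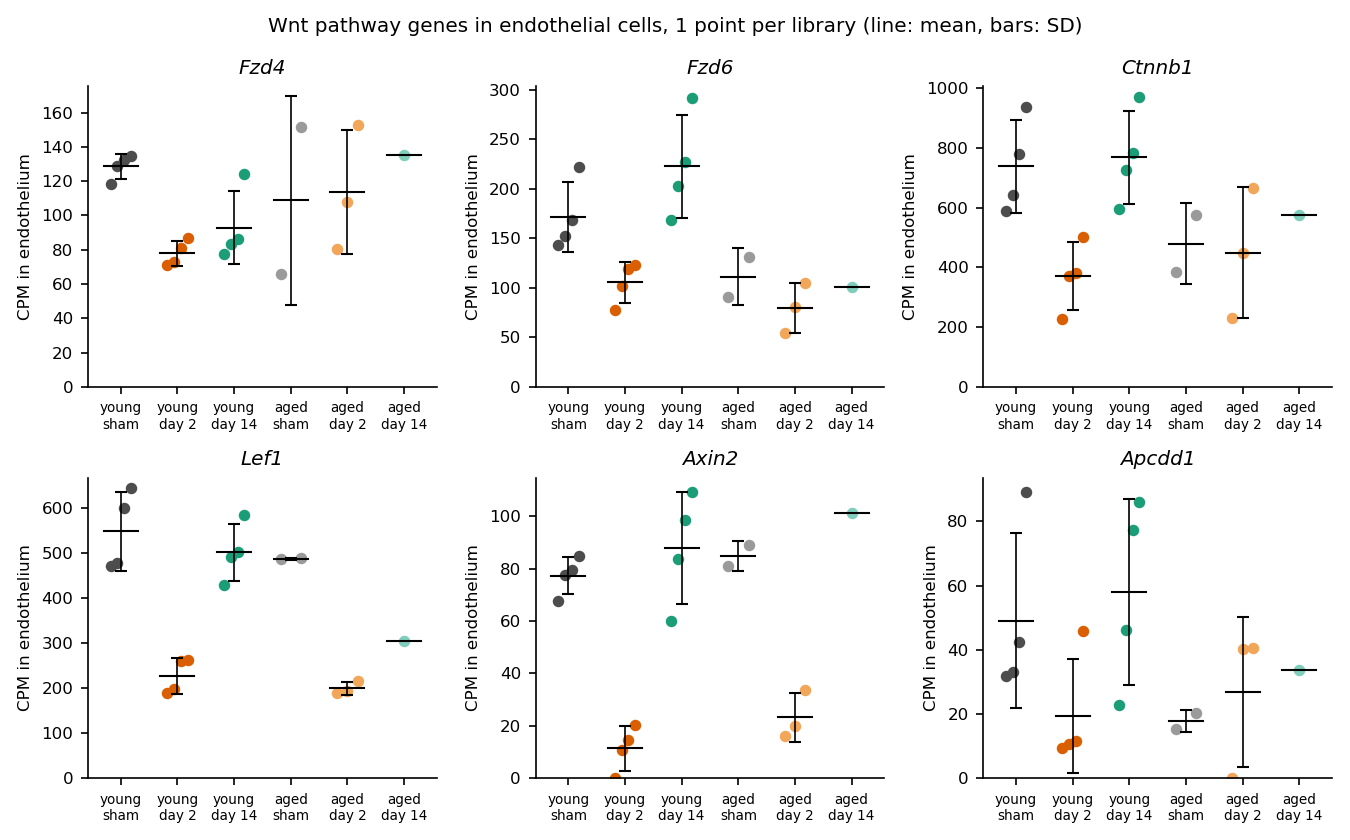
Level of each gene in endothelium in CPM (y axis, from 0) by group (x axis), 1 point per library, with the group's mean as a line and its SD as bars; the aged day 14 group is 1 library. Young day 2 libraries of Axin2 (0 to 20.5 CPM) and Lef1 (189 to 261 CPM) lie below all sham and all day 14 libraries.

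At day 14 none of the 6 members was called against sham by edgeR, as was none of the 5833 genes (0%), of which 356 had an unadjusted p under 0.05. DESeq2 called 10 genes, and over all alternatives the calls ranged from 0 to 22, the highest in the 5 libraries with low mitochondrial content. Axin2 stood at 83.5, 109, 98.7 and 60.1 CPM (log2 fold change against sham 0.19 ± 0.38, adjusted p = 0.9996). Lef1 stood at 490, 501, 429 and 584 CPM (-0.13 ± 0.21, adjusted p = 0.985). The libraries of day 14 overlapped those of sham for all 6 genes. Fzd4 was the member farthest below sham, at 83.5, 86.5, 124 and 77.3 CPM, with only the third library inside the sham range (-0.48 ± 0.22, adjusted p = 0.804). The log2 fold change against sham was 0.039 ± 0.26 for Ctnnb1 (adjusted p = 0.9996), 0.32 ± 0.54 for Apcdd1 (adjusted p = 0.986) and 0.33 ± 0.22 for Fzd6 (adjusted p = 0.917). These directions did not hold for Ctnnb1 with 1 library left out (-0.11 to 0.17) or for Fzd6 in the libraries with low mitochondrial content (-0.21).

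Set against day 2, 4 of the 6 members were called higher at day 14 and 0 lower, where 5.07% of all genes tested were called higher and 6.14% lower. The day 2 libraries are those of the comparison above, so the contrasts are not independent. Axin2 rose by 2.70 ± 0.42 on the log2 scale (adjusted p = 0.00189 by edgeR) and Lef1 by 1.04 ± 0.21 (adjusted p = 0.00656). Fzd6, at 203, 168, 227 and 292 CPM at day 14, rose by 0.97 ± 0.22 (adjusted p = 0.0105). Ctnnb1, at 782, 596, 725 and 970 CPM, rose by 0.96 ± 0.26 (adjusted p = 0.0256), a call kept in 8 of the 12 fits without 1 library. For these 4 genes no day 14 library reached down to the day 2 range, which held for 11% of all genes. Over 12 alternatives the call was lost in 1 for Axin2, in 3 for Lef1, in 2 for Fzd6 and in 3 for Ctnnb1. Apcdd1, at 46.2, 22.8, 77.2 and 85.9 CPM, had a log2 fold change of 1.46 ± 0.53 (adjusted p = 0.0855). It was called in 3 of 12 alternatives: with a replicate block (1.60, adjusted p = 0.0331, bringing the called members to 5), with the mitochondrial set as a term (1.59, adjusted p = 0.0230) and in cells with at least 500 counts (adjusted p = 0.0452). Leaving out day 2 replicate 3, it was also called (2.25, adjusted p = 0.0188 by edgeR), with the limits given above for that fit. Fzd4 differed by 0.16 ± 0.22 between these times (adjusted p = 0.675), with overlapping libraries.

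Because the young libraries differ in mitochondrial content, the day 2 comparison was also made within each of those sets, a choice made after seeing the data. Among the 7 libraries with the higher content, Axin2 had a log2 fold change of -1.95 (adjusted p = 0.00956 by edgeR), Lef1 of -1.04 (adjusted p = 0.0293) and Ctnnb1 of -1.33 (adjusted p = 0.0154). Among the 5 with the lower content there was 1 sham library, assumed in the fit to vary like the stroke groups, so the missing calls there say nothing of stability. The values were -3.56 (adjusted p = 0.190), -1.18 (adjusted p = 0.147) and -0.28 (adjusted p = 0.731). With the set as a term in the fit, all 3 stayed called (-2.49, -1.11 and -0.90).

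The deposited annotation splits endothelium into subtypes coded EC1 to EC9, and their shares differed between groups. EC1, with the highest mean of the capillary markers, made up a mean of 60.1% of endothelial cells in sham, 23.2% at day 2 and 41.4% at day 14. EC2 made up 2.58% in sham (0.339% to 5.50%), 44.4% at day 2 (32.7% to 59.2%) and 2.41% at day 14. EC2 carried less of the endothelial marker list (a mean of 1733 CPM per marker, against 2878 CPM in EC1) and of the capillary list (117 against 697 CPM). Within all endothelium, capillary markers summed to 2442 to 2883 CPM in sham and to 978 to 1624 CPM at day 2, and venous markers to 406 to 625 CPM and 784 to 1183 CPM. Shares and levels by subtype are descriptions, since the subtypes were defined by expression.

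In EC2 at day 2, Axin2 was close to absent. Pooled over 4 libraries and 1017 cells it had 1 count among 965711 (1.04 CPM), and its mean over libraries was 0.818 ± 1.64 CPM. Lef1 stood at 127 ± 24.5 CPM there (SD, n = 4) and at 395 ± 128 CPM in EC1 of the same libraries. Fzd6 was at 67.2 ± 33.0 CPM in EC2 and at 164 ± 49.8 CPM in EC1, Fzd4 at 49.7 ± 25.8 and 86.6 ± 33.4 CPM, and Ctnnb1 at 328 ± 110 and 453 ± 150 CPM. Apcdd1 was at 8.00 ± 5.59 CPM in EC2 and at 44.7 ± 51.1 CPM in EC1. All 6 means were thus lower in EC2, and only for Lef1 and Fzd6 did the 2 means stand apart by more than the sum of the 2 SDs. In sham and at day 14 only 1 library each held 20 or more EC2 cells, with 2 and 1 counts of Axin2, so EC2 could not be compared between groups.

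Axin2 was also lower at day 2 within EC1. Sham EC1 stood at 97.4 ± 29.8 CPM (53.6 to 120), day 2 EC1 at 16.1 ± 16.5 CPM (0 to 38.0) and day 14 EC1 at 101 ± 54.0 CPM (SD, n = 4 each). The sham and day 2 libraries did not overlap, but with 9 counts at day 2 the gene did not pass the filter of the EC1 fit. With no filter it was called (-2.19, adjusted p = 0.0345 by edgeR), as it was at day 14 against day 2 (2.19, adjusted p = 0.0431). In those fits of 15531 genes 0.0966% were called lower at day 2 and 0.0773% higher at day 14 against day 2. Lef1 in EC1 stood at 602 ± 99.6 CPM in sham, 395 ± 128 CPM at day 2 and 566 ± 61.5 CPM at day 14 (day 2 against sham -0.60 ± 0.26, adjusted p = 0.201 by edgeR). Ctnnb1 in EC1 stood at 814 ± 208, 453 ± 150 and 901 ± 178 CPM, without overlap between sham and day 2 (-0.85 ± 0.30, adjusted p = 0.126), a separation found for 6.07% of the 2174 genes tested in EC1. Fzd6 in EC1 hardly differed between sham, at 157 ± 20.0 CPM, and day 2, at 164 ± 49.8 CPM (-0.0063 ± 0.27, adjusted p = 0.992).

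None of the members that passed the filter was called between day 2 and sham in EC1, where 0.598% of genes were called, a count of 13 that ranged from 0 (without sham replicate 2) to 165 (without sham replicate 1) with 1 library left out. The same held in EC3 (0% of 1008 genes), in EC4, which carried the highest arterial markers (0.443% of 902), and in EC5 (0% of 993). The Lef1 log2 fold change was -0.65 in EC3 (adjusted p = 0.772 by edgeR), -1.12 in EC4 (adjusted p = 0.246) and 0.43 in EC5 (adjusted p = 0.913), where 2 sham libraries entered. Axin2 means at sham and day 2 were 87.4 and 33.1 CPM in EC3, 42.4 and 22.9 CPM in EC4, and 70.8 and 50.1 CPM in EC5, each on 8 counts or fewer per group and with libraries of the groups overlapping.

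**Figure D3:**
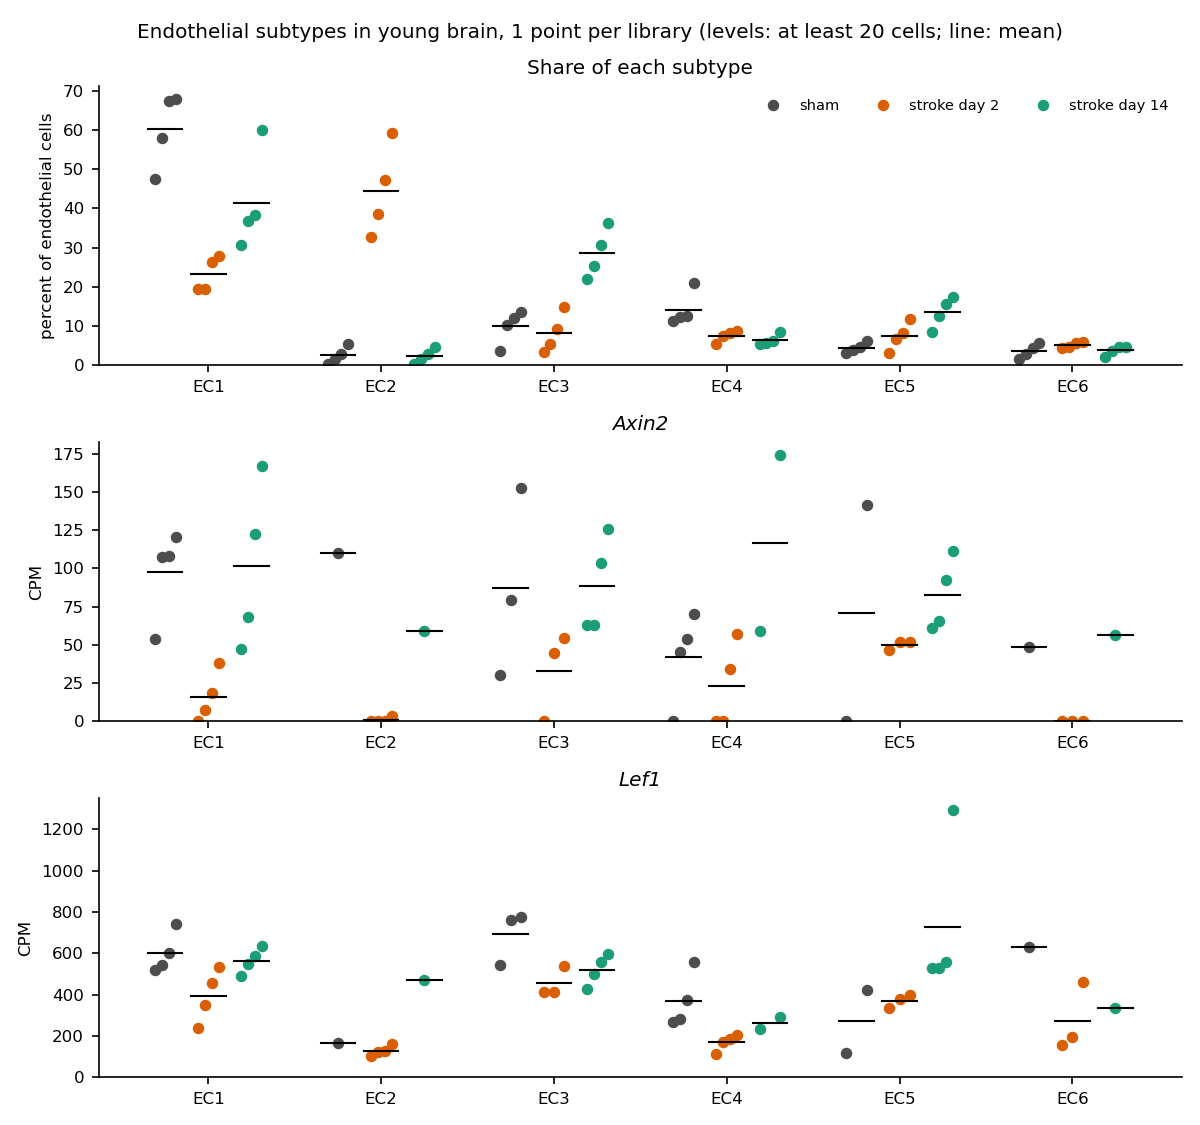
Share of each endothelial subtype in percent of endothelial cells (top), and level in CPM of Axin2 (middle) and Lef1 (bottom) by subtype in young brain, 1 point per library with the mean as a line; levels are drawn for libraries with at least 20 cells of the subtype. EC2 makes up 32.7% to 59.2% of cells at day 2, where its Axin2 level is near 0, and the day 2 points of Axin2 in EC1 lie below the sham points.

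The comparison was therefore repeated without EC2 cells, also after seeing the data, the level of Axin2 in EC2 included. Because the subtypes were defined by expression, p-values without EC2 or within a subtype, in young and aged mice, are descriptions and not independent tests. Axin2 stayed called at day 2 against sham, with a log2 fold change of -1.70 ± 0.39 (adjusted p = 0.0451 by edgeR). Its sham libraries stood at 83.3, 75.4, 68.6 and 79.4 CPM and its day 2 libraries at 18.9, 0, 24.9 and 32.8 CPM, still apart. Here too Axin2 passed the filter through its sham and day 14 libraries. No fit without EC2 was made with the filter off. Of the 4941 genes tested without EC2, 0.506% were called lower and 0.607% higher. Lef1 then stood at 548 ± 81.1 CPM in sham and 329 ± 62.3 CPM at day 2 (-0.70 ± 0.23, adjusted p = 0.119), and Ctnnb1 at 745 ± 157 and 422 ± 128 CPM (-0.82 ± 0.26, adjusted p = 0.121). Neither of these was called. Fzd4 (-0.33), Fzd6 (-0.25) and Apcdd1 (-0.63) were not called either. Against day 2, Axin2 was the member called higher at day 14 (1.93 ± 0.38, adjusted p = 0.0301), where 0.101% of genes were. Ctnnb1 (0.85 ± 0.26, adjusted p = 0.129), Lef1 (0.57 ± 0.23, adjusted p = 0.226) and Fzd6 (0.56 ± 0.22, adjusted p = 0.231) were no longer called, against values of 0.96, 1.04 and 0.97 over all endothelial cells.

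In aged mice the day 2 values of Axin2 and Lef1 lay lower than sham in every library, without passing the test. Lef1 stood at 488 CPM in the male and 485 CPM in the female sham library, and at 189 CPM in the male and 193 and 216 CPM in the female stroke libraries. The groups were well apart, with a log2 fold change of -1.24 ± 0.27 (adjusted p = 0.0532 by edgeR). Of 9 alternatives 4 called Lef1 and 5 did not. DESeq2 called it (adjusted p = 0.00642), as did edgeR without the filter on low counts (adjusted p = 0.0415), without TMM (adjusted p = 0.0342) and with counts rounded up (adjusted p = 0.0441). Axin2 stood at 89.0 and 80.9 CPM in sham and at 20.1, 16.1 and 33.8 CPM after stroke, for -1.82 ± 0.62 (adjusted p = 0.229). These are 2 of 6 members without overlap, where 13.9% of the 6604 genes tested were apart in that direction, and 0 of 6 were called, where 0.182% of genes were called lower and 0.424% higher.

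The other members overlapped between aged sham and stroke. Fzd4 stood at 65.8 and 152 CPM in sham and at 153, 80.4 and 108 CPM at day 2 (0.29 ± 0.37, adjusted p = 0.828). Fzd6 stood at 132 and 91.0 CPM and at 80.3, 105 and 54.1 CPM (-0.50 ± 0.34, adjusted p = 0.626). Ctnnb1, at 383 and 576 CPM and at 450, 667 and 230 CPM, had a log2 fold change of -0.038 ± 0.40. Apcdd1 rested on 6 counts in sham and 11 after stroke, at 15.5 and 20.2 CPM and at 0, 40.2 and 40.6 CPM. The single aged library of day 14 had 6 Axin2 counts (101 CPM) and 18 Lef1 counts (304 CPM).

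The effect of stroke at day 2 was not shown to differ between aged and young mice for any member. By edgeR's interaction term, aged minus young on the log2 scale, Axin2 differed by 0.67 ± 0.78 (adjusted p = 0.904), Lef1 by -0.10 ± 0.34 (adjusted p = 0.985), Ctnnb1 by 0.87 ± 0.51 (adjusted p = 0.850), Fzd4 by 0.91 ± 0.45 (adjusted p = 0.847), Fzd6 by 0.11 ± 0.41 (adjusted p = 0.988) and Apcdd1 by 1.64 ± 1.35 (adjusted p = 0.850). None of the 6604 genes was called (0%), and 356 had an unadjusted p under 0.05. DESeq2 also called 0, and with no filter on low counts 10 were called higher and 114 lower. EC2 made up 2.30% of aged sham and 62.2% of aged day 2 endothelial cells. Pooled aged EC2 had 1 Axin2 count. Without EC2, aged Lef1 stood at 493 ± 2.81 CPM in sham (n = 2) and 369 ± 71.9 CPM at day 2 (n = 3), for -0.46 ± 0.31 (adjusted p = 0.994, with 0% of genes called lower), and Axin2, at 86.9 ± 7.06 and 61.8 ± 7.44 CPM, had too few counts to be tested. Within aged EC1, Axin2 stood at 101 and 62.0 CPM in sham and at 105, 120 and 93.2 CPM at day 2, the latter on 4, 2 and 2 counts. Those aged day 2 libraries overlapped sham, unlike the young ones described above, and whether Axin2 in EC1 differed between the ages was not tested.

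**Figure D4:**
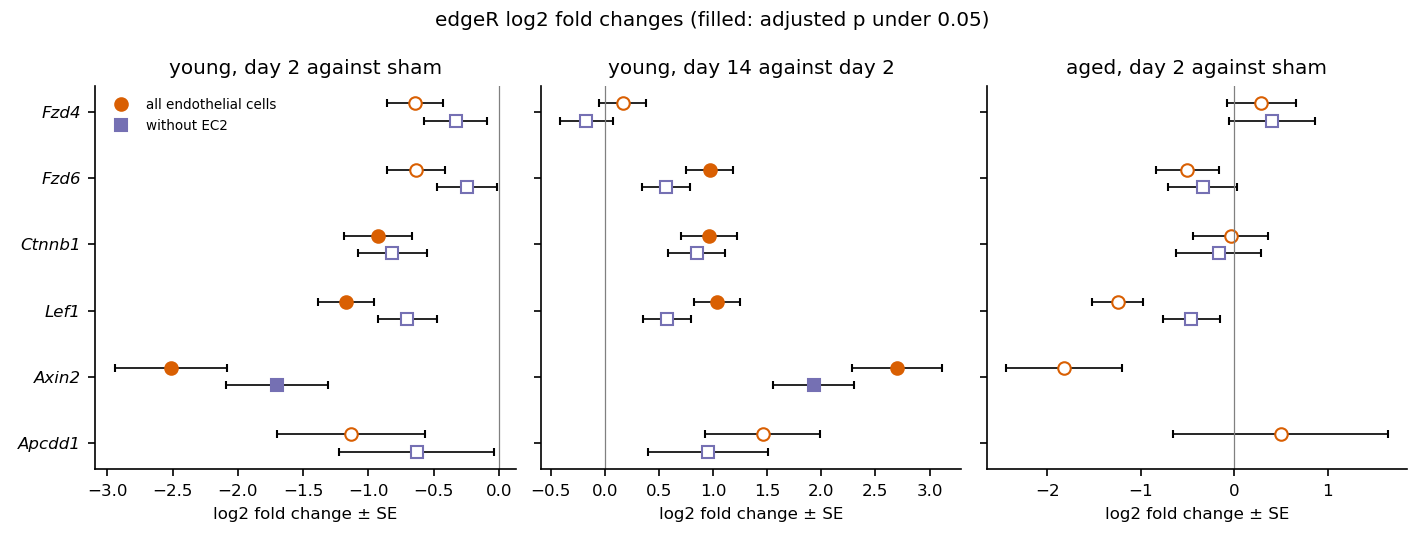
Log2 fold change with SE (x axis) of each gene in endothelium for 3 comparisons, by edgeR, over all endothelial cells (circles) and without EC2 cells (squares); filled symbols passed an adjusted p of 0.05. Axin2 is the member that passed in both young comparisons without EC2, which is a description. There it passed the filter on low counts through its sham and day 14 libraries. Leaving out EC2 was chosen after its low Axin2 level was seen. In aged mice, where Axin2 and Apcdd1 were not tested without EC2, no member passed.

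Around the 6 members, 90 genes of the pathway in 5 lists were followed, members included. The lists too were chosen with earlier results of these data known. At day 2 against sham in young endothelium, 28 of them could be tested, of which 8 were called lower and 0 higher, beside 6.45% lower and 6.89% higher of all genes. The 1 tested ligand, Wnt5a, known for acting mainly outside the beta-catenin branch, fell by 0.96 ± 0.28 on the log2 scale (adjusted p = 0.0342 by edgeR). That call held in 5 of 12 fits without 1 library (adjusted p up to 0.121) and was lost in 6 of 11 alternatives. Of 6 tested receptors and co-receptors 1 fell: Reck, which with Adgra2 forms the Wnt7 co-receptor of brain endothelium, fell by 1.00 ± 0.25 (adjusted p = 0.0167), a call lost in 5 of 12 alternatives. Adgra2 (-0.29, adjusted p = 0.726), the co-receptor Lrp6 (-0.97, adjusted p = 0.0591) and Tspan12, a partner of Fzd4 in norrin signalling (0.49, adjusted p = 0.538), did not pass. Lrp5 and Tcf7l2 had too few counts to be tested. The median log2 fold change was -0.64 over the receptors and 0.0048 over all genes tested.

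Of 7 tested transducers 3 fell: Ctnnb1, Lef1, and Gsk3b, a kinase of the destruction complex (-1.12 ± 0.27, adjusted p = 0.0155 by edgeR), with a list median of -0.92. The Gsk3b call held in 8 of 12 fits without 1 library. Tcf7, a factor related to Lef1, had -0.89 (adjusted p = 0.0598). Of 5 tested feedback genes and inhibitors 2 fell, Axin2 and Notum, a secreted enzyme that inactivates Wnt ligands (-2.09 ± 0.33, adjusted p = 0.00162), with a list median of -1.13. Of 9 barrier genes linked to endothelial Wnt signalling 1 fell, the efflux transporter Abcb1a (-1.67 ± 0.24, adjusted p = 0.00123), with a median of -0.57. The glucose transporter Slc2a1 (-0.21, adjusted p = 0.590), the tight junction gene Cldn5 (-0.20, adjusted p = 0.626), the factors Sox17 (-0.39, adjusted p = 0.356) and Foxq1 (-0.64, adjusted p = 0.0616), and Plvap, a marker of leaky vessels (-0.57, adjusted p = 0.690), did not pass.

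Between day 2 and day 14, 12 of the 28 tested pathway genes were called higher and 0 lower, beside 5.07% and 6.14% of all genes. Beside the members these were Reck (0.81), Tcf7 (1.11), Notum (1.80), Nkd1, an intracellular inhibitor (0.89), Tnfrsf19 (1.00), Foxq1 (0.75), the lipid transporter Mfsd2a (1.07) and Abcb1a (1.34), with adjusted p by edgeR between 0.00295 and 0.0426. Notum and Abcb1a kept the call in all 12 fits without 1 library, Tcf7 and Mfsd2a in 7, Nkd1 and Foxq1 in 3, Tnfrsf19 in 2 and Reck in 1. Over 12 alternatives Notum lost the call in 3 (adjusted p up to 0.147), Abcb1a in 2, Mfsd2a in 3, Tcf7 and Foxq1 in 5, Tnfrsf19 in 6, Nkd1 in 7 and Reck in 8. With a replicate block Reck was not called (0.84, adjusted p = 0.0535). The list medians were 0.50 for receptors, 0.79 for transducers, 1.46 for feedback genes and 0.55 for barrier genes, against 0.017 over all genes tested. Wnt5a did not follow this course (-0.33, not called). In aged mice at day 2 none of the 29 tested genes of the lists was called. The aged medians were -0.18 for receptors, -0.80 for transducers, -0.76 for feedback genes and -0.70 for barrier genes.

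**Figure D5:**
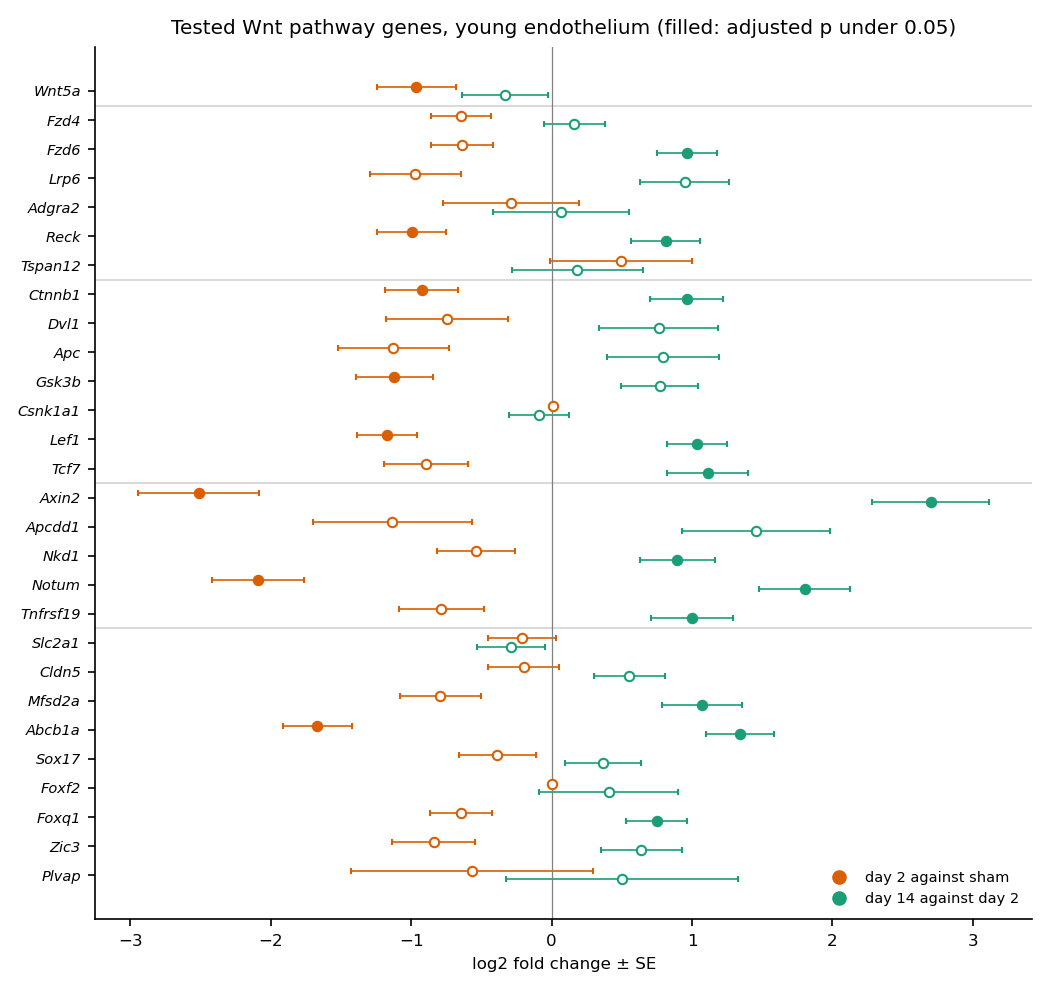
Log2 fold change with SE (x axis) of the 28 tested pathway genes (y axis, grouped from top to bottom as ligand, receptors, transducers, feedback genes and barrier genes) in young endothelium, for day 2 against sham and day 14 against day 2; filled points passed an adjusted p of 0.05, and no bar is drawn for a change within 0.01 of 0. The filled day 2 points all lie left of 0 and the filled day 14 points all lie right of 0; both sets use the same day 2 libraries.

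Of the members, Ctnnb1 was the one that could be tested in microglia with all libraries in the fit. Day 2 replicate 3 stood apart there, with microglial markers summed to 936 CPM, against 13020 to 29890 CPM in the other 11 young libraries. The mean of Ctnnb1 was 159 CPM in sham, 116 CPM at day 2 (141 CPM without that library) and 154 CPM at day 14. At day 2 its log2 fold change against sham was -0.14 ± 0.34 (adjusted p = 0.786 by edgeR), -0.033 without that library and -1.11 to 0.39 over alternatives. At day 14 it was 0.41 ± 0.32 (adjusted p = 0.398), against the order of the means and turning to -0.034 without TMM. Whether the Ctnnb1 change differed between microglia and endothelium was not tested.

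Of 10145 genes tested in microglia, 31.4% were called at day 2 and 15.2% at day 14. These 3182 and 1544 genes ranged from 55 to 3621 and from 90 to 3425 over alternatives, with the fewest in libraries with low mitochondrial content. With 1 library left out they ranged from 2094 (without day 2 replicate 4) to 3524, and from 791 (without sham replicate 4) to 2573 (without day 14 replicate 4). Of 4 receptors and co-receptors tested 1 was called lower at day 2, where 15.7% of all genes were: the Frizzled receptor Fzd7, with means of 21.2 CPM in sham and 1.77 CPM at day 2 (-3.03 ± 0.59, adjusted p = 0.00238 by edgeR; -3.02 without day 2 replicate 3). Fzd7 passed the filter on low counts through libraries of the other groups, not those of day 2, so its call is limited. Of 14 transducers 6 were called lower at day 2. Of those 6, Dvl1 kept the call in 4 of 12 fits without 1 library, Gsk3b in 8 and Bcl9l in 9, and without day 2 replicate 3 the count was 5. At day 14, where 4.66% of all genes were called lower, 1 transducer was (2 without that library), namely Tcf7l2, a TCF factor called lower at both times (-1.52, adjusted p = 0.00324, and -1.66, adjusted p = 0.00178). The feedback gene Dkk2, a secreted modulator of the LRP co-receptors, stood at 12.5, 25.0, 14.1 and 12.6 CPM in the 4 libraries of day 14 (94 counts). Its 4 sham and 4 day 2 libraries all had 0 counts, with a floor of 3 counts over the sham group at 0.536 CPM and of 117 CPM in day 2 replicate 3, whose 0 says nothing at these levels. Because Dkk2 entered the fit through the day 14 libraries alone, no test of it is given.

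Over the 12 young libraries, endothelial levels of Axin2 and Lef1 (log2 CPM) varied together, with a Pearson r of 0.87, and those of Fzd4 and Fzd6 did so least, with r of 0.25. These 12 points share the 3 groups and their mix of subtypes, so r is given as a description. Among 5411 genes the closest to Axin2 were Itih5 (r = 0.96), Hmgxb4 (0.94) and Maob (0.93). Itih5 stood at a mean of 493 CPM in sham, 163 CPM at day 2 and 506 CPM at day 14. The closest to Lef1 were Abcb1a (0.97), Col4a3bp (0.97) and Notum (0.96). For Ctnnb1 they were Akap11, Ptprb and Tab2 (0.96 to 0.93), for Fzd6 Rnf11, Add3 and Samhd1 (0.94 to 0.89), for Apcdd1 Wrn, Btbd3 and Slc40a1 (0.90 to 0.89), and for Fzd4 Marf1, Aspscr1 and Csnk1g2 (0.89 to 0.85).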

How the data were processed

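Brain libraries were analysed; the 11 blood libraries hold no endothelium and were not used. The authors deposited, as their processed output, a table of expected counts (estimated counts that are mostly not whole) per gene and cell for each library, together with metadata giving cell type codes at 2 levels and the percent of mitochondrial counts. The step that made the counts fractional and the aligner are not given in the sources used here. The submitters' processing notes name Seurat and the build mm10. The genes listed number 19704 in young and 27514 in aged libraries.

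For each library and cell type the counts of all deposited cells were added up and rounded. CPM is a gene's sum scaled to a total of 1000000 for that library and type. Tests used edgeR 4.0.16 (R 4.3.3; TMM, filterByExpr by group, two-sided quasi-likelihood test), with Benjamini-Hochberg adjustment over all genes tested and a threshold of 0.05. A library entered a fit with at least 20 cells of the type. Young fits held the 3 young groups, and aged and interaction fits the 4 day 2 groups. The SE is the log2 fold change divided by the square root of its F. The fit was tested on simulated data with a fixed spread and changes in genes of a higher sham level than Axin2 and Apcdd1. That test does not cover levels as low as theirs. Floors of 3 counts cover counting error only.

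Alternatives were DESeq2 1.42.0, no filter, no TMM, a replicate block, sex, counts rounded up, cells without leukocyte genes, cells with at least 500 counts, only the groups compared, and each library left out. Mitochondrial sets (split at 3%) and leaving out EC2 were added after seeing the data. Scrublet marked 108 of 55268 cells (0.195%), too few for a comparison, so these cells were kept. Why so few were marked was not tested. Same-numbered day 2 and day 14 libraries deviated together (correlations 0.138 to 0.479, 4 of 4 over 0.1). Each of these pairs also lay in the same mitochondrial set. Differently numbered pairs of these 2 groups within a set had correlations of 0.059 to 0.288. Pairing by number and sharing a set therefore cannot be told apart, and the main fits use no block. At most 3 barcodes (0.113%) were shared by a pair of libraries.

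Named genes were the 6 members, list genes called in a comparison, 12 list genes fixed by name, and per member the 3 genes with the highest Pearson r of log2 CPM (mean of at least 20 CPM). Members, lists and tests were chosen with earlier results of these data known. Promoter sequences and gene positions are from RefSeq, GRCm38.p6.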

Additional observations from a re-analysis of the deposited data

Results flagged for a closer look

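Apcdd1 in young endothelium at day 2 stood at 45.8 CPM in replicate 3, far from the other 3 stroke libraries at 9.58 to 11.6 CPM. It is marked because the gap to its nearest neighbour was 0.944 of the group's range, above Dixon's critical value for 4 samples. Of the 18 groups of 4 libraries looked at (6 genes in 3 groups) it was the one marked, and chance marks about 1 in 20. Its part in the Apcdd1 comparison is given by the value without it (-1.94, adjusted p = 0.0388 by edgeR). That call is a description, because the library was marked by its value. Without it, Apcdd1 passed the filter on low counts through other groups than day 2. The cause was not tested.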

How the results depend on the processing

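Counts of called members at day 2 against sham in young endothelium went from 3 to 0 in the libraries with low mitochondrial content (1 sham library, assumed to vary like the stroke groups) and to 1 without EC2 cells. At day 14 against day 2 they went from 4 to 0 and to 1. Calls over all genes fell in the same settings. Without EC2 cells 0.506% of all genes were called lower at day 2 against sham, and 6.45% with them. At day 14 against day 2, 0.101% were called higher without EC2 cells and 5.07% with them. Low mitochondrial content at day 2: Axin2 -3.56, Lef1 -1.18, Ctnnb1 -0.28. In the same libraries Lef1 and Fzd6 at day 14 against sham turned to 0.097 and -0.21, and by subtype Ctnnb1 turned to 0.65 in EC3 and 0.024 in EC5, and Lef1 to -0.27 in EC5. Without EC2: Lef1 -0.70 and Ctnnb1 -0.82 lost the call, Fzd4 at day 14 against day 2 was -0.17, and the age differences of Lef1 and Fzd6 were 0.24 and -0.094. Other settings at day 2: Ctnnb1 -0.86 with no filter and -0.84 with at least 500 counts, Fzd6 -0.90 with at least 500 counts, Fzd4 -0.71 without TMM. In aged mice 1 member (Lef1) was called with DESeq2, with no filter, without TMM and with counts rounded up. Aged calls over all genes, 40 in the main fit, ranged from 0 to 135 over alternatives. Aged Apcdd1 was -0.37 with sex in the fit, and aged Ctnnb1 0.031 without cells with a leukocyte gene and 0.069 with at least 500 counts. The age difference was 0.011 for Lef1 and -0.00641 for Fzd6 without cells with a leukocyte gene, and -0.029 for Fzd6 with no filter. The main microglial fit called 31.4% of all genes at day 2. In microglia 1 member (Ctnnb1) was called at day 2 in libraries with high mitochondrial content. Ctnnb1 was 0.39 at day 2 in those with low content, and -0.034 at day 14 without TMM. In EC1, 1 member (Axin2) was called at day 2 against sham, and at day 14 against day 2, with no filter and in the libraries with low mitochondrial content, the latter at day 2 on 1 sham library. With no filter, 0.0966% of all genes in EC1 were called lower at day 2 and 0.0773% higher at day 14 against day 2. The cause was not tested for any of these changes.

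Leaving out 1 library at a time, Apcdd1 ranged from -1.94 to -0.78 and Ctnnb1 from -1.06 to -0.72 at day 2, and Ctnnb1 from -0.11 to 0.17 at day 14 against sham. Fzd4 at day 14 against day 2 ranged from -0.015 to 0.26. In aged mice 0 to 1 members were called, Apcdd1 ranged from -0.12 to 1.22, Fzd4 from -0.30 to 0.85 (-0.055 without the male stroke library), and Ctnnb1 from -0.40 to 0.25 (0.23 without the female sham library). The age difference of Lef1 ranged from -0.20 to 0.015. That of Fzd6 ranged from -0.14 to 0.44 with an aged library left out (-0.085 without the first female stroke library), and from -0.038 to 0.19 with a young stroke library left out. In microglia at day 2, 0 to 1 members were called (Fzd4, without day 14 replicate 2) and Ctnnb1 ranged from -0.32 to 0.12.

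The replicate numbers were not shown to pair sham with either stroke group. Of same-numbered pairs, 0 of 4 of sham with day 2 had a correlation over 0.1 (-0.0946 to -0.0169). Of those of sham with day 14, 2 of 4 did (-0.119 to 0.152). With a replicate block, Axin2 at day 2 was -2.55 (adjusted p = 0.0034 by edgeR) with 3 members called. At day 14 against day 2, Apcdd1 gained and Reck lost the call with that block, and no other named gene changed. Over all genes tested, calls at day 2 went from 778 to 415 with at least 500 counts, 40 with low mitochondrial content, 55 without EC2, and 320 (without sham replicate 3) to 991 with 1 library left out. At day 14 against day 2 they went from 654 to 404 with no filter, 133 and 13 with high and low mitochondrial content, 29 without EC2, and 324 (without day 14 replicate 4) to 717. Without TMM the calls split into 302 higher and 467 lower at day 2 (402 and 376 with it), and 405 and 244 at day 14 against day 2 (296 and 358). The median of all genes in the latter moved from 0.017 to 0.12. Aged calls went from 40 to 108 with DESeq2, 135 with no filter, 25 with at least 500 counts, 0 without EC2, and 0 (without the female sham library) to 53 with 1 library left out. Of the log2 fold changes of named genes, 987 values under alternatives kept direction and side of the threshold, 144 lost and 16 gained the call, and 32 turned. Leaving out doublets and a batch from the metadata were planned and not run, since Scrublet marked too few cells and the metadata code is one per library. At day 14 against sham calls went from 0 to 10 with DESeq2, 6 with no filter, 2 with the mitochondrial set as a term, 22 with low mitochondrial content and 1 with a replicate block. Low counts per group limit Axin2 and Apcdd1.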
